A study of Mus musculus with 51 samples.

Results

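The *Zic* genes encode transcription factors with a row of C2H2 zinc fingers, related to those of the Gli and Glis proteins. *Zic1*, *Zic2*, *Zic4* and *Zic5* were taken by symbol from every table of expression values, and they are 4 of the 24538 genes listed in each table. In the mouse embryo *Zic* genes are known for their roles in the neural plate, the neural crest and the dorsal neural tube. *Zic2* and *Zic5* are also transcribed in pluripotent cells, and loss of *Zic2* disturbs forebrain formation, whereas *Zic1* and *Zic4* act in the developing cerebellum.

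The RNA was measured in mouse embryonic stem cells (mESCs) that were aggregated and driven towards cardiac mesoderm with Bmp4, a ligand that signals through Smad1, Smad5 and their partner Smad4. F1G4 wild-type (WT) cells were measured at day 0 before Bmp4, as feeder-deprived mESCs aggregated in hanging drops (the embryoid body stage, written ES), and on days 1, 2 and 3 of differentiation with 20 ng/ml Bmp4, with 2 samples per stage. *Eomes* KO, *T* KO and *Eomes*/*T* double KO (dKO) cells were measured on days 2 and 3 with the same Bmp4 dose, with 1 sample per line and day. *Eomes* and *T* encode T-box factors of the primitive streak. Each of these KO lines is a clone lacking the promoter and first exon of the targeted gene; both single KO lines derive from F1G4, and the dKO line derives from *Eomes* KO cells. *Smad4* KO cells, in which Cre had removed the first *Smad4* exon, and the WT cells of their own line, which carry a conditional *Smad4* allele and are labelled 129S/SvEvxC57BL/6, were measured on days 1 and 2 with Bmp4, with 1 sample each. All 18 RNA samples are thus Bmp4-treated except the 2 ES samples. These sample numbers are those of the labels, whereas the study's figure legends describe the KO and WT values as averages over replicates; which holds for each KO column could not be settled from the tables.

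The tables hold 1 FPKM value (fragments scaled by transcript length and by the size of the library) per gene and condition, which gives 14 conditions. No SD, standard error or test could be given, and every difference below is a description of these pooled values without a replicate check. A gene was examined in a comparison if its FPKM was above 1 on either side, and it was called higher or lower if the log2 ratio was above 1 or below -1. The *T* KO day 2 and *Eomes* KO day 3 values stood apart: 15.6% and 16.4% of the examined genes were called in either direction, against 4.77% to 11.0% in the other KO comparisons. How the columns are scaled moved the balance of calls: with each column rescaled to a fixed sum (TPM), the share of calls that were higher went from 45.0% to 72.0% in *Eomes* KO cells on day 3, from 36.5% to 52.0% in *T* KO cells on day 2, from 44.5% to 27.1% in *Eomes* KO cells on day 2 and from 43.6% to 13.0% in dKO cells on day 2. The targeted genes were lower in the *Eomes*, *T* and dKO cells, with *T* at 6.64 FPKM in *T* KO cells on day 2 against 44.8 in WT cells, and *Eomes* at 0.276 against 20.3 in *Eomes* KO cells on day 3. *Smad4* itself was not lower in *Smad4* KO cells (log2 ratio 0.22 on day 1 and 0.25 on day 2), and a gene-level value of a deletion confined to the first exon does not check the label. The ES cell marker *Pou5f1* was at 1002 FPKM in ES cells, and *T* reached 320 FPKM in F1G4 WT cells on day 3.

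In the mouse genome (GRCm38, RefSeq) *Zic5* lies on the minus strand at chr14:122459160-122465658 and *Zic2* on the plus strand at chr14:122475384-122480328. Their start sites face away from each other across 9725 bases. *Zic1* (chr9:91358058-91365768, minus strand) and *Zic4* (chr9:91365631-91389351, plus strand) form a second head-to-head pair. In the GENCODE annotation the *Zic1* and *Zic4* models share 3398 bases on opposite strands, and *Zic4* also shares 884 bases with *Gm37477*. The libraries were strand-specific, but whether strand was used in counting is not stated in the sources used here, so reads in the shared stretches may not have been assigned with certainty.

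RefSeq promoter sequence was matched for *Zic1*, *Zic4* and *Zic5*. The stretch from 250 to 51 bases before the *Zic5* start (chr14:122465709-122465908, GRCm38, minus strand, overlapping no annotated exon) is shown because *Zic5* is the member of the chromosome 14 pair with a matched promoter. It was searched on both strands for TCACACC, a T-box motif bound by factors of the Eomes and T type, for GGCGCC, a GC-rich Smad1 motif, and for CTTTGA, a Tcf/Lef core. It is written 5′ to 3′ in lower case throughout, since capitals would have marked a match.
Zic5: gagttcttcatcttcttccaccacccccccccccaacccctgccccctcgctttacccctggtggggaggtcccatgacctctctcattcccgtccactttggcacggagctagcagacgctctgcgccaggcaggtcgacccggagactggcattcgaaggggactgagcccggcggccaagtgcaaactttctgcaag
This window had a GC content of 63.0% and 10 CpG dinucleotides, against medians of 51.5% and 4 over 27025 promoter windows of the same length. None of the 3 motifs was found in it. They occurred in 2.68% (TCACACC), 7.11% (GGCGCC) and 11.99% (CTTTGA) of all windows, so their lack in 1 window is what most windows show. The windows of the other matched genes overlap annotated exons (6 for *Zic1* and 19 for *Zic4*, counted over transcript models), and that of *Zic4*, set on a start downstream of the RefSeq gene start printed above, lies inside its gene. The *Zic1* window had a GC content of 71.5%, 24 CpG dinucleotides and 1 GGCGCC, and the *Zic4* window a GC content of 43.5%, 2 CpG dinucleotides and no match.

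*Zic2* and *Zic5* were expressed in every condition, whereas *Zic1* and *Zic4* never reached 1 FPKM. FPKM is scaled by transcript length, so these levels can be set side by side as far as length is concerned. A trend with GC content may remain in them. *Zic2* ranged from 8.17 to 48.4 FPKM with a median of 18.5 over the 14 conditions, and *Zic5* ranged from 6.42 to 25.3 FPKM with a median of 11.5. In ES cells the *Zic2* level exceeded that of 75.0% of genes, and in *Smad4* KO cells on day 2 that of 92.9%.

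**Figure D1:**
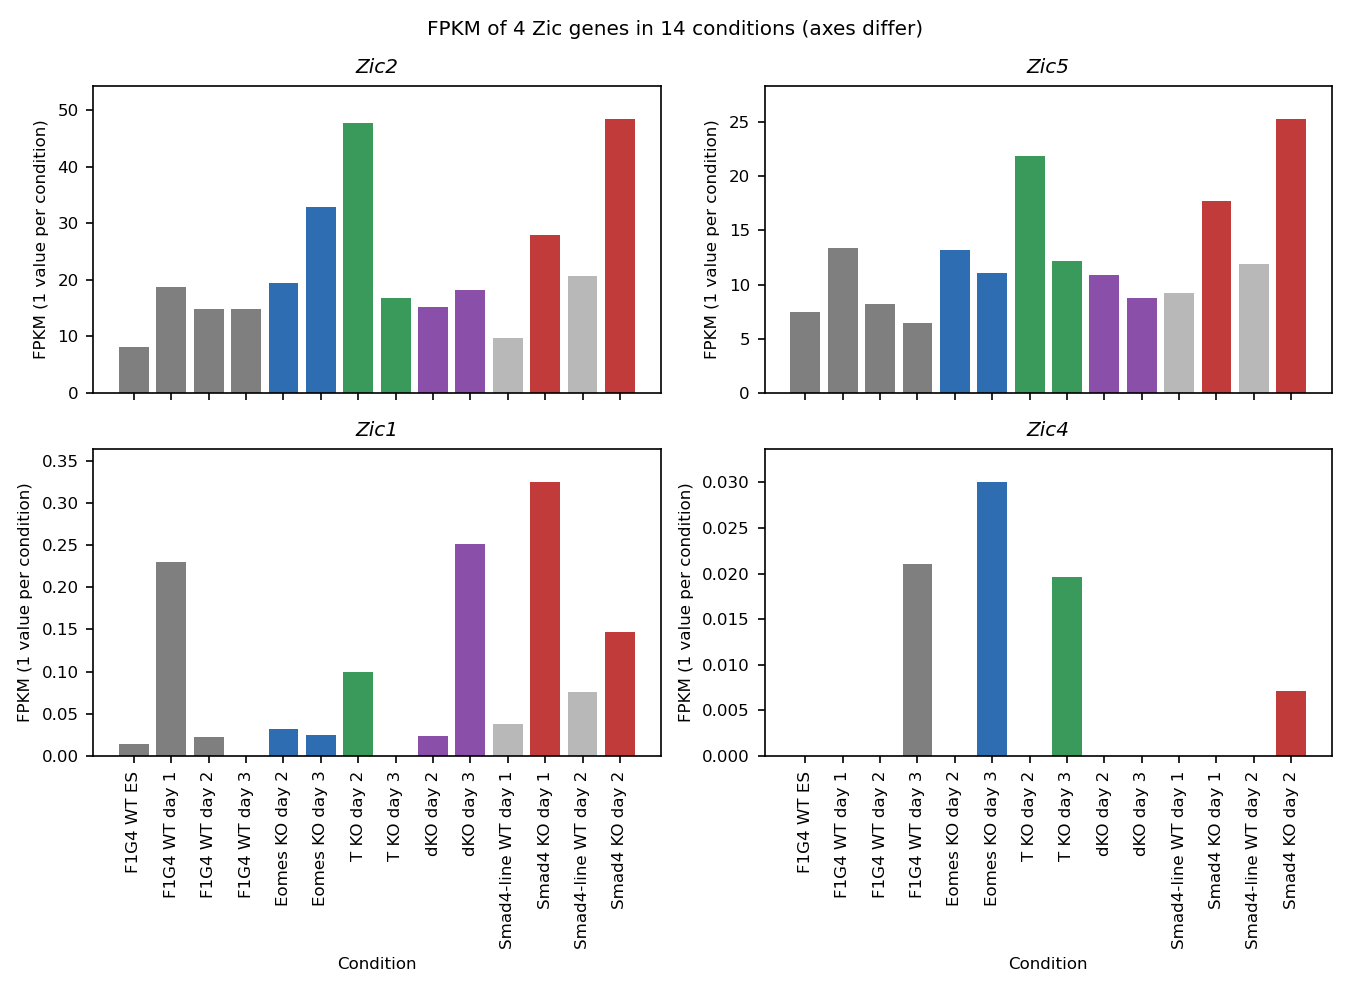
FPKM of *Zic2*, *Zic5*, *Zic1* and *Zic4* in 14 conditions, 1 pooled value per bar without an error, with a separate axis from 0 for each gene. The highest bars of *Zic2* and *Zic5* are *Smad4* KO day 2 (48.4 and 25.3 FPKM) and *T* KO day 2 (47.6 and 21.8 FPKM), while no *Zic1* bar exceeds 0.325 and no *Zic4* bar 0.0301 FPKM.

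During differentiation of F1G4 WT cells, *Zic2* started at 8.17 FPKM in ES cells. It was at 18.7 FPKM on day 1, at 14.8 on day 2 and at 14.9 on day 3. *Zic5* started at 7.47 FPKM and was at 13.4 FPKM on day 1, at 8.23 on day 2 and at 6.42 on day 3. Both genes thus had their highest value of this line on day 1. *Zic5* was back near its ES value by day 2, while *Zic2* stayed above its own. In bulk RNA, fewer cells of a type and less RNA per cell cannot be told apart, and this holds for every difference here.

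From ES cells to day 1 *Zic2* was called higher with a log2 ratio of 1.20, as were 7.68% of the examined genes, and *Zic5* was not called (0.84). The robust SD of the log2 ratios of genes with a like FPKM was 0.37 in this comparison. From day 1 to day 2 the log2 ratio was -0.34 for *Zic2* and -0.70 for *Zic5*, and neither was among the 4.13% of genes called lower. From day 2 to day 3 it was 0.0070 for *Zic2* and -0.36 for *Zic5*, where 4.06% were called lower. For *Zic2* this value is no change in either direction, since it fell below 0 when FPKM was rescaled to TPM (-0.0061). Over the whole course from ES cells to day 3, *Zic2* differed by 0.86 and *Zic5* by -0.22, without a call, although 31.1% of the examined genes were called in either direction.

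The same days separated other gene groups. Of 12 naive pluripotency genes, 11 of 12 examined were called lower from ES cells to day 1 and none higher, with a median log2 ratio of -3.21, where 5.83% of all examined genes were called lower. Of 12 formative and primed epiblast genes, 6 of 12 examined were called higher on day 1 and none lower (median 0.97), and 8 were called lower and 1 higher from day 1 to day 2 (median -1.20). The *Zic5* values followed that order of rise and fall at smaller ratios. Of 10 nascent mesoderm genes, 7 of 7 examined were called higher from day 1 to day 2, with a median of 2.17, where 7.16% of all examined genes were called higher. The median of all examined genes was -0.05 from ES cells to day 1 and -0.0043 from day 1 to day 2, with 0.1 added to each FPKM as for the lists.

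Under Bmp4, both *Zic2* and *Zic5* had higher values in *Smad4* KO than in WT cells. Smad4 is also the partner of Smad2 and Smad3, which carry Nodal signals. The study reports that Nodal as well as Bmp signals were blocked without Smad4, and that nuclear active Ctnnb1, the Wnt effector, was strongly reduced. The *Zic2* and *Zic5* values are thus no readout of the Bmp4 response alone, and the part of each pathway in them was not tested. On day 1 *Zic2* was at 28.0 FPKM in KO and 9.63 FPKM in WT cells of the same line. On day 2 it was at 48.4 FPKM in KO and 20.7 in WT cells. It was called higher on both days, with log2 ratios of 1.54 and 1.23, which correspond to 2.91-fold and 2.34-fold. These ratios exceeded those of 99.2% and 98.3% of the examined genes, and 2.36% and 2.56% of the examined genes were called higher on days 1 and 2.

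*Zic5* was at 17.7 FPKM in *Smad4* KO and 9.20 FPKM in WT cells on day 1. On day 2 it was at 25.3 FPKM in KO and 11.9 in WT cells. The day 1 log2 ratio of 0.94 was just under the threshold and passed it after rescaling to TPM (1.01, or 0.94 relative to the median of examined genes), and the day 2 ratio of 1.09 was called. Genes of a like FPKM had robust SDs of 0.25 and 0.21 on these days. These robust SDs describe other genes between the same columns and are no replicate spread. The highest values of both genes over the 14 conditions were those of *Smad4* KO cells on day 2.

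*Zic1* was at 0.325 FPKM in *Smad4* KO and 0.0379 FPKM in WT cells on day 1, and at 0.147 and 0.0763 FPKM on day 2. These levels are under the examined minimum.

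Neural ectoderm transcription factors were described beside the *Zic* genes from a list of 20, of which the study named 5 (*Sox1*, *Sox2*, *Otx2*, *Pax6* and *Tal2*) from these same libraries, so the list is not independent evidence of a direction. In *Smad4* KO cells on day 1, 3 of 7 examined were called higher and none lower (median 0.39), led by *Sox1* (1.62 against 0.136 FPKM), *Pax6* and *Sox3*. On day 2, 6 of 7 were called higher and none lower (median 0.82), with *Pax6* at 10.4 against 0.378 FPKM and *Tal2* at 9.06 against 0.447 FPKM. *Zic2* and *Zic5* moved in the same direction at smaller ratios and from higher WT levels than *Pax6* or *Sox1*. Their ratios were above the list medians, which also cover members under the examined minimum. Of the epiblast genes, 5 were called higher and 1 lower on each of the 2 days, with *Fgf5* at 17.9 against 3.40 FPKM on day 1, and *Otx2* at 54.2 against 15.3 FPKM on day 2. *Otx2* and *Sox3* belong to both the neural and the epiblast list, so the counts of these lists overlap. The mesoderm genes went the other way, with 7 of 7 examined called lower on day 2 (median -3.56), as did the naive genes, with 7 of 8 called lower (median -1.28). On days 1 and 2, 2.41% and 3.21% of all examined genes were called lower. Among the naive genes called lower on day 2 were *Nanog* and *Tbx3*. In F1G4 WT cells these 2 were called higher from day 1 to day 2, and 5 of the 10 examined naive genes lower. All examined genes there were called higher in 7.16% and lower in 4.13%. None of 3 examined *Gli* and *Glis* genes, the nearest zinc finger relatives, was called on either day. In either direction, 4.77% and 5.77% of all examined genes were called on days 1 and 2, so nothing is read from this. Markers of other cell types also differed. Feeder fibroblast markers summed to 5.65 FPKM over 8 genes in *Smad4* KO cells on day 2, with 2 above 1 and none at 0, against 2.54 FPKM in WT cells, with 1 above 1 and 1 at 0; *Dcn*, a matrix proteoglycan gene, was at 2.02 FPKM in KO cells and listed at 0 in WT cells. On day 1 the sums were 3.86 and 3.96 FPKM. Neural crest markers summed to 8.49 FPKM over 6 genes in KO cells on day 2 against 2.68 FPKM in WT cells, and to 6.55 against 4.68 FPKM on day 1. *Foxd3*, also an epiblast gene, made up most of each sum, with 8.24 FPKM in KO cells on day 2. It was the single marker above 1 in these 4 columns, with 1 of the 6 at 0. The median log2 ratio of the 6 markers was 0.01 on day 1 and -0.34 on day 2, so the higher sums are those of *Foxd3* and not of the list. The part of these markers in the *Zic2* and *Zic5* values was not tested.

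**Figure D2:**
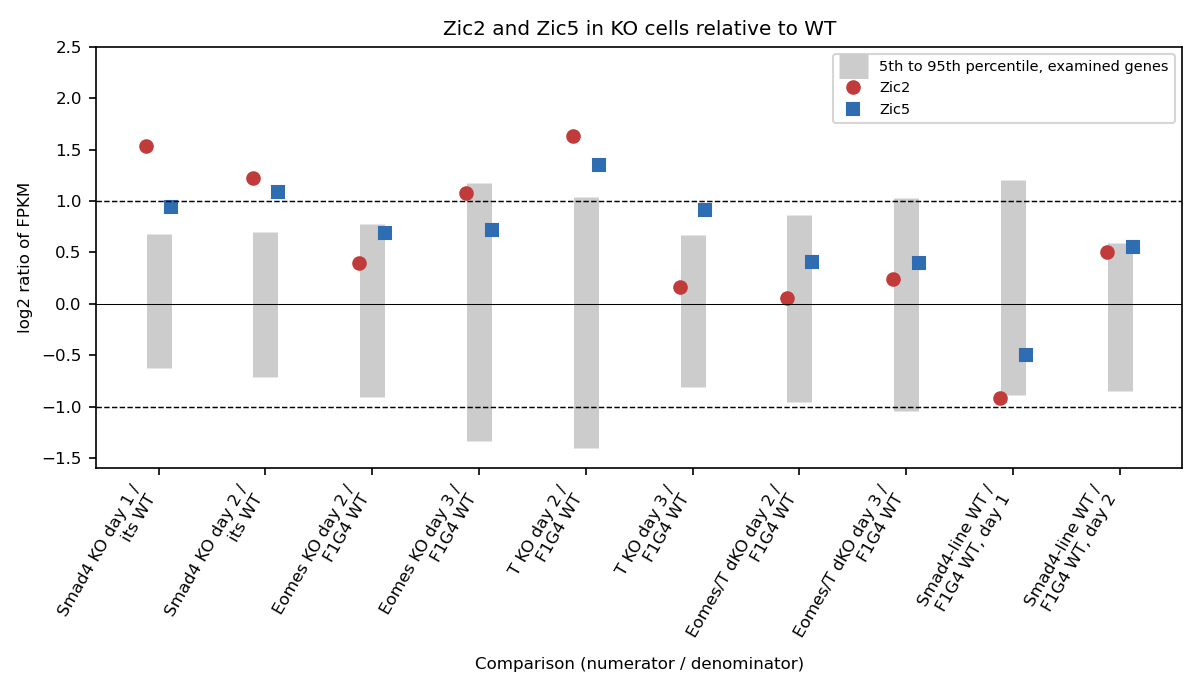
log2 ratios of *Zic2* (circles) and *Zic5* (squares) in 8 comparisons of KO with WT cells and in 2 comparisons of the WT lines, over grey bars from the 5th to the 95th percentile of the examined genes. Dashed lines mark the call threshold of 1 in each direction. *Zic2* and *Zic5* lie above the grey bar in both *Smad4* KO comparisons and in *T* KO cells on day 2 (1.64 and 1.36). *Zic5* also lies above it in *T* KO cells on day 3 (0.91), and *Zic2* below it between the WT lines on day 1 (-0.92).

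*Eomes* KO cells differed from F1G4 WT cells more on day 3 than on day 2 for *Zic2*. On day 2 *Zic2* was at 19.4 FPKM in KO and 14.7 in WT cells, and on day 3 at 32.9 FPKM in KO and 15.5 in WT cells. The day 2 log2 ratio of 0.40 was not called, and the day 3 ratio of 1.08 was. The day 3 ratio exceeded those of 93.8% of the examined genes. *Zic5* was at 13.2 FPKM in KO and 8.18 in WT cells on day 2, and at 11.1 FPKM in KO and 6.72 in WT cells on day 3. Its log2 ratios of 0.69 and 0.72 were not called on either day, though the day 3 value passed the threshold with TPM (1.01, or 0.74 relative to the median of examined genes). On these days 3.35% and 7.39% of all examined genes were called higher.

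The *Eomes* KO day 3 call of *Zic2* was close to the threshold. *Zic2* has a GC-rich transcript (59.9%, against 49.8% for *Zic5*). Genes of a like GC content had a median log2 ratio of 0.13, and the *Zic2* ratio was 0.95 with that median taken off. With a trend with transcript length removed instead, the *Zic2* ratio was 1.26. Feeder fibroblast markers summed to 8.72 FPKM over 8 genes in these cells, the highest of the 14 conditions, which otherwise ranged from 0.790 to 5.65 FPKM; 2 of the 8 were above 1 and none was at 0. Neural crest markers summed to 9.05 FPKM over 6 genes, 3 of them above 1, against 2.53 FPKM and none above 1 in WT cells on day 3. *Foxd3* and *Pax3* of that list belong to other lists too, and *Snai2*, the highest, was at 5.89 FPKM. The part of these markers in the *Zic2* value was not tested.

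*T* KO cells on day 2 had the largest *Zic2* and *Zic5* ratios of the 8 KO comparisons as deposited, while on day 3 *Zic2* was near its WT value. *Zic2* was at 47.6 FPKM in KO and 15.3 in WT cells on day 2, and at 16.8 FPKM in KO and 15.0 in WT cells on day 3. Its log2 ratios were 1.64, called higher, and 0.16, not called. *Zic5* was at 21.8 FPKM in KO and 8.53 in WT cells on day 2, and at 12.2 FPKM in KO and 6.49 in WT cells on day 3. Its log2 ratios were 1.36, called higher, and 0.91, not called. They exceeded those of 97.7% and 97.4% of the examined genes, so the value without a call was about as far out as the called one. On day 2, 5.7% of the examined genes were called higher, and on day 3, 2.12%.

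The *T* KO day 2 values belong to the condition with many called genes named above, and other measures moved there too. Genes with a GC content like that of *Zic2* had a median log2 ratio of 0.29. With it taken off, 1.35 remained for *Zic2*, below its ratio in *Smad4* KO cells on day 1, and for *Zic5* the value was then 1.43. With a trend with transcript length removed instead, the values were 1.67 for *Zic2* and 1.27 for *Zic5*. *Eomes* was at 24.7 FPKM in these cells against 9.81 in WT cells, and the naive genes were called higher in 3 of 10 examined and lower in none. Neural crest markers summed to 16.2 FPKM over 6 genes, of which *Foxd3*, also an epiblast gene, made up 15.7, and 1 was above 1. In WT cells on day 2 the sum was 3.18 FPKM, and the median log2 ratio of the 6 markers was 0.03. The part of these measures in the *Zic2* and *Zic5* values was not tested.

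In dKO cells neither gene was called. *Zic2* was at 15.3 FPKM in dKO and 14.7 in WT cells on day 2, and at 18.2 FPKM in dKO and 15.4 in WT cells on day 3. *Zic5* was at 10.8 FPKM in dKO and 8.17 in WT cells on day 2, and at 8.77 FPKM in dKO and 6.68 in WT cells on day 3. The log2 ratios were 0.06 and 0.24 for *Zic2* and 0.41 and 0.39 for *Zic5*, where 3.48% and 5.51% of the examined genes were called higher. These WT values and those of the single KO lines come from the same WT libraries of each day, so the 3 KO lines do not give separate views of WT.

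Neural factors with calls were found in dKO cells in which *Zic2* and *Zic5* had none. On day 3, 5 of 8 examined were called higher and none lower, with *Pax6* at 4.03 against 0.0488 FPKM, *Sox1* at 6.49 against 0.198 FPKM and *Irx3* at 10.5 against 0.716 FPKM. On day 2, 3 of 7 were called higher, namely *Pax6*, *Sox1* and *Irx3*. In *Eomes* KO cells, 5 of 7 were called higher on day 2, and 3 of 6 higher and 1 lower on day 3, with *Irx3* at 18.3 against 0.720 FPKM. On that day 9.01% of all examined genes were called lower. In *T* KO cells, 3 of 6 were called higher on day 2 (*Sox1*, *Irx3* and *Sox2*) and 2 of 5 on day 3 (*Tal2* and *Irx3*). The relation of *Zic2* and *Zic5* to these factors thus varied between lines, and whether it differed between them was not tested.

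The *Gli* and *Glis* genes gave 2 calls in the 8 KO comparisons. *Gli2*, a Hedgehog effector, was at 2.58 FPKM in *Eomes* KO cells on day 3 against 0.810 in WT cells, and *Glis2* was at 9.02 FPKM in *T* KO cells on day 2 against 3.67. These are the 2 comparisons named above as having the most calls, with 7.39% and 5.7% of all examined genes called higher, so nothing is read from *Zic2* having been called there too.

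**Figure D3:**
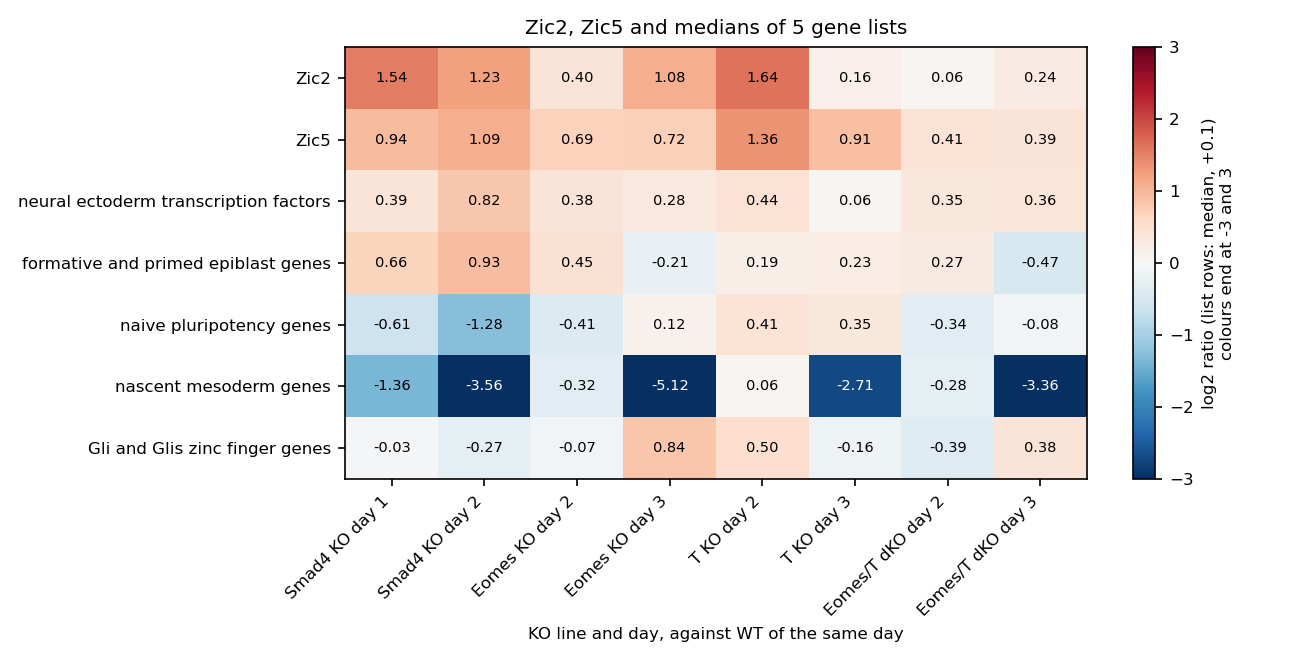
log2 ratios of *Zic2* and *Zic5* and the median log2 ratios of 5 gene lists (0.1 added to each FPKM) in 8 comparisons of KO with WT cells, red for higher and blue for lower in KO, with colours ending at 3 in each direction. The *Zic* rows are above 0 in each column as deposited (with TPM *Zic2* in dKO cells on day 2 is at -0.35), and the nascent mesoderm row is lowest in *Eomes* KO cells on day 3 (-5.12).

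Across the 8 comparisons, *Zic2* and *Zic5* were each higher in KO than in WT cells every time, except that *Zic2* in dKO cells on day 2 was lower after rescaling to TPM (-0.35) or after removing a trend with transcript length (-0.03). The rescaling moved the median of all examined genes there to -0.43, and relative to it *Zic2* was at 0.08. The *Zic2* ratios in dKO cells (0.06 and 0.24) and in *T* KO cells on day 3 (0.16) were below the robust SDs of genes with a like FPKM (0.38, 0.39 and 0.25). So were the *Zic5* ratios in dKO cells (0.41 and 0.39, robust SD 0.46 on both days). Of these comparisons, 6 share their WT libraries with others. The share of all genes higher in all 8 was not computed, so nothing is read from the tally. *Zic2* was called in 4 comparisons and *Zic5* in 2, and both *Zic5* calls were in comparisons in which *Zic2* was called.

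The WT cells of both lines differed too, by an amount that bears on the size of the KO ratios. With the tables set to a common median, *Zic2* was lower in WT cells of the *Smad4* line than in F1G4 WT cells on day 1 (9.90 against 18.7 FPKM, log2 ratio -0.92) and higher on day 2 (log2 ratio 0.51, with 14.8 FPKM in F1G4 cells). *Zic5* was at 9.46 against 13.4 FPKM on day 1 (-0.50) and at 12.04 against 8.23 FPKM on day 2 (0.55). None was called, where 3.94% of genes were called lower on day 1 and 1.61% higher on day 2. The *Zic2* ratios exceeded those of 4.7% of the examined genes on day 1 and 92.9% on day 2, and the *Zic5* ratios those of 16.3% and 93.9%. The day 2 shares are close to the 93.8% of the called *Zic2* ratio in *Eomes* KO cells on day 3. The day 1 value of *Zic2* passed the threshold once a trend with transcript length was removed (-1.03). These values cross tables that were normalized separately, and line and culture cannot be told apart.

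The course of *Zic2* over days also differed in direction between the lines, again across tables. From day 1 to day 2 *Zic2* went from 9.63 to 20.7 FPKM in WT cells of the *Smad4* line and from 28.0 to 48.4 FPKM in *Smad4* KO cells, while it went from 18.7 to 14.8 FPKM in F1G4 WT cells. From day 2 to day 3 it went from 19.4 to 32.9 FPKM in *Eomes* KO cells, from 47.6 to 16.8 FPKM in *T* KO cells and from 15.3 to 18.2 FPKM in dKO cells. *Zic5* went down over that day in all 3 lines, from 13.2 to 11.1, from 21.8 to 12.2 and from 10.8 to 8.77 FPKM.

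*Zic2* exceeded *Zic5* in all 14 conditions. The ratio of their FPKM values was lowest in WT cells of the *Smad4* line on day 1 (1.05) and in ES cells (1.09), and highest in *Eomes* KO cells on day 3 (2.96). In F1G4 WT cells it was 1.40 on day 1, 1.80 on day 2 and 2.31 on day 3, and in dKO cells 1.41 on day 2 and 2.08 on day 3. In *Smad4* KO cells it was 1.58 on day 1 and 1.92 on day 2, and in *T* KO cells 2.18 on day 2 and 1.38 on day 3. The balance of FPKM values therefore moved towards *Zic2* with each day in every line except *T* KO. Genes with a GC content like that of *Zic2* and of *Zic5* had median log2 ratios to WT of 0.13 and -0.05 in *Eomes* KO cells on day 3. In *T* KO cells on day 2 these medians were 0.29 and -0.07. The part of GC content in the balance was not tested.

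**Figure D4:**
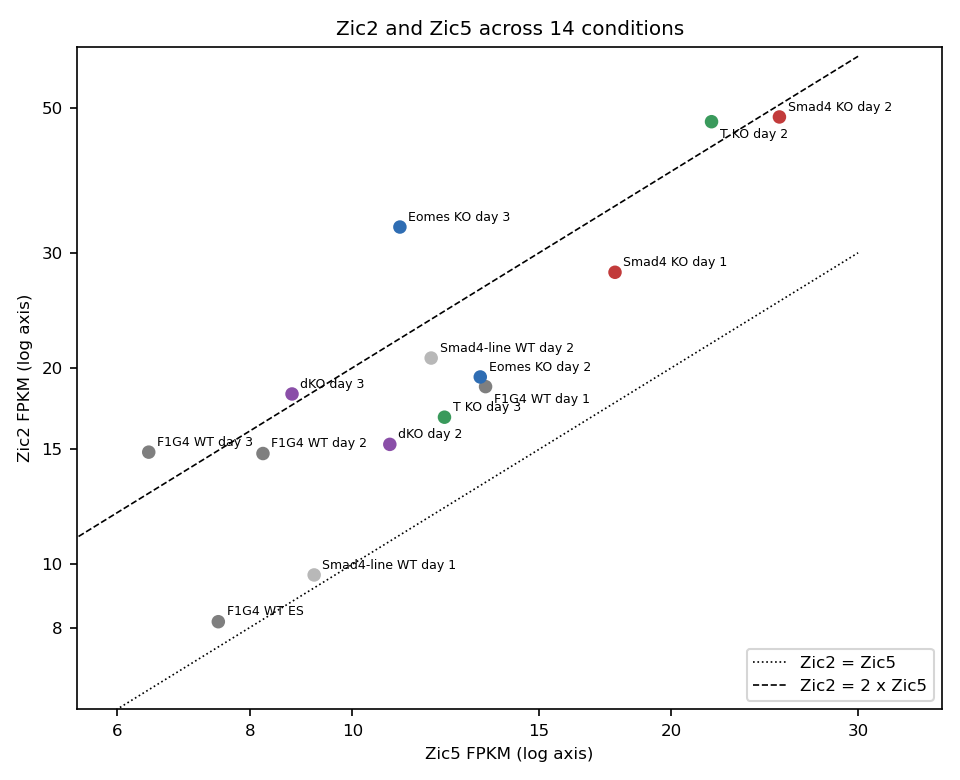
*Zic2* against *Zic5* FPKM in 14 conditions, 1 point per condition, both axes logarithmic, with lines of equal FPKM (dotted) and of a *Zic2* value 2 times that of *Zic5* (dashed). All points lie above the dotted line, and *Eomes* KO day 3 lies farthest from it.

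*Zic2* and *Zic5* varied together across conditions, with a Pearson correlation of 0.834 on the log2(FPKM + 0.1) scale over the 14 conditions. It was 0.852 over 12 conditions without *T* KO day 2 and *Eomes* KO day 3, and 0.768 over the 10 conditions without the *Smad4* line. The conditions share lines, days and normalization, so this is a description. Among 12590 genes above 1 FPKM in at least 1 condition, the 5 with the pattern most like that of *Zic2* were *Slain1* (0.904), *Msi1* (0.899), *Igfbp5* (0.888), *Zfp251* (0.886) and *Gm8008* (0.864). *Msi1* encodes an RNA-binding protein of neural progenitors, *Igfbp5* a binding protein of insulin-like growth factors, and *Slain1* a microtubule-associated protein. Over the same 14 conditions the correlation of *Zic2* was 0.583 with *Sox1*, 0.385 with *Otx2*, 0.293 with *Pax6* and -0.061 with *Sox2*. It was 0.030 with *T* and 0.054 with *Eomes*. For *Zic5* the values were 0.469, 0.688, 0.493, 0.335, -0.304 and 0.020, in the same order of genes. *Msi1* ranged from 2.01 FPKM in ES cells to 13.0 in *T* KO cells on day 2, the same span of conditions as *Slain1*, from 5.27 to 17.7 FPKM. *Zfp251* was also highest in *T* KO cells on day 2, and *Gm8008* in *Eomes* KO cells on day 3. Those are the conditions that stood apart above, and the ranking was not repeated without them. *Igfbp5* was highest in *Smad4* KO cells on day 2, and each of the 5 genes was lowest in ES cells.

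The 5 genes most like *Zic5* were *Fbxo21* (0.878), *Slain1* (0.838), *Ahr* (0.836), *Zic2* (0.834) and *Cbx2* (0.818). *Zic2* thus stood among the genes most like *Zic5*, and *Slain1*, which is also on chromosome 14, stood in both. *Fbxo21*, *Slain1* and *Cbx2* were highest in *T* KO cells on day 2, and *Ahr* and *Zic2* in *Smad4* KO cells on day 2. This ranking was not repeated without the conditions that stood apart either. *Cbx2* encodes a Polycomb protein and *Ahr* the aryl hydrocarbon receptor, with *Ahr* ranging from 1.90 FPKM in F1G4 WT cells on day 3 to 6.19 FPKM in *Smad4* KO cells on day 2.

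The order of the levels was similar for both genes at the top. For *Zic2*, *Smad4* KO day 2, *T* KO day 2, *Eomes* KO day 3 and *Smad4* KO day 1 came first, and the next 8 conditions lay between 14.8 and 20.7 FPKM. For *Zic5*, *Smad4* KO day 2, *T* KO day 2 and *Smad4* KO day 1 came first, and the remaining conditions lay between 6.42 and 13.4 FPKM. Without replicate values, neighbours in either order could not be separated.

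*Zic1* was detected at trace level and *Zic4* hardly at all. *Zic1* was highest in *Smad4* KO cells on day 1 (0.325 FPKM), followed by dKO cells on day 3 (0.251) and F1G4 WT cells on day 1 (0.230). It was at 0.147 FPKM in *Smad4* KO cells on day 2 and at 0.0990 in *T* KO cells on day 2, between 0.0137 and 0.0763 in 7 further conditions, and listed at 0 in F1G4 WT and *T* KO cells on day 3. *Zic4* was listed at 0 in 10 of the 14 conditions, and reached 0.0301 FPKM in *Eomes* KO cells on day 3, 0.0211 in F1G4 WT and 0.0196 in *T* KO cells on day 3, and 0.00708 in *Smad4* KO cells on day 2. At these levels a few reads decide the value, and no fold change is given.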

How the data were processed

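RNA was sequenced from strand-specific ScriptSeq libraries of 18 samples. Per the methods and the submitters' processing notes, the authors trimmed reads with cutadapt 2.9, aligned them to mm10 with HISAT2 2.1.0 and made gene values with Cuffdiff 2.2.1. The 9 deposited tables hold FPKM values, 1 per gene and condition, normalized across libraries by the authors within each table; samples of a condition were pooled, so no replicate value, fragment count or depth is known. Column sums were 401510 to 608585 FPKM, with 10402 to 11248 genes above 1 FPKM. The F1G4 WT columns of the KO tables were multiples (0.9892 to 1.0448) of those in the time-course table.

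Log2 ratios were taken without a pseudocount within each table, with a minimum of 1 FPKM and a threshold of 1 (the rule of the study's methods); list medians and correlations used a pseudocount of 0.1. Comparisons across tables were scaled to a common median ratio. Lists were described by counts and medians, and at most 4 called genes per list and comparison, by absolute log2 ratio, were eligible to be named. The 5 most similar genes were taken per expressed *Zic* gene. Of 24512 usable gene names, 24008 were matched to GENCODE M21 for GC content and length. Python 3.11.15, numpy 2.4.6 and pandas 2.3.3 were used. The code of the calls was run on simulated data with little noise and planted changes well beyond the threshold. That run checks the code and says nothing on ratios near the threshold. Alternatives were another FPKM minimum, pseudocounts, TPM, median scaling, the time-course WT column, and, chosen after seeing the data, removal of trends with GC content and transcript length. The genes and lists were chosen with earlier results of these data known. A further *Zic* gene is not reported here.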

Additional observations from a re-analysis of the deposited data

Results flagged for a closer look

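*Zic2* and *Zic5* drew attention because the WT cells of both lines differed in opposite directions on days 1 and 2. The log2 ratio of WT cells of the *Smad4* line to F1G4 WT cells was -0.92 on day 1 and 0.51 on day 2 for *Zic2*. For *Zic5* it was -0.50 on day 1 and 0.55 on day 2. Each is 1 pooled value across separately normalized tables, and the difference between days was not tested.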

How the results depend on the processing

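Of the counts of called *Zic* genes under the alternatives, 103 stayed within 1.5 times the reported count, and 13 did not. Of the log2 ratios of *Zic2* and *Zic5*, 224 kept their direction and side of the threshold, 4 reversed, 3 passed it and 1 no longer did. Without an FPKM minimum, *Zic1* and *Zic4* entered at trace levels, and the count of called genes was 2 from ES cells to day 1, 1 from day 1 to day 2, 2 from day 2 to day 3, 2 from ES cells to day 3, 2 in *Smad4* KO cells on day 1, 2 in *Eomes* KO cells on day 3, 2 in dKO cells on day 3, and 1 between the WT lines on each of days 1 and 2. After rescaling to TPM it was 2 in *Smad4* KO cells on day 1 and 2 in *Eomes* KO cells on day 3, since *Zic5* reached 1.01 in both; TPM moved the median log2 ratio of examined genes by over 0.1 from ES cells to day 1 (to 0.06) and to day 3 (to 0.13) and in *Eomes* KO (-0.24 on day 2, 0.27 on day 3), *T* KO day 2 (0.12) and dKO cells (-0.43 and -0.14). Removing the GC trend left 0 calls in *Eomes* KO cells on day 3 (*Zic2* 0.95), and removing the length trend gave 1 between the WT lines on day 1. *Zic2* reversed from day 2 to day 3 (-0.0061 with TPM, -0.0082 without the length trend) and in dKO cells on day 2 (-0.35 with TPM, -0.033 without the length trend). The causes of these shifts were not tested.

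No paired analysis was possible because each column pools the samples of its condition, and leaving out replicates could not be run for the same reason. Depth behind each value is unknown, which limits *Zic1* and *Zic4* most.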
